A study of Mus musculus with 6 samples.

Results

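The 9 genes described here are *Pou3f4*, *Tbx18*, *Tbx15*, *Foxc1*, *Foxc2*, *Prrx1*, *Twist1*, *Coch* and *Otos*, which are known for their expression in the mesenchyme around the inner ear or in the fibrocytes that form from it. They were taken by gene symbol from a table of 24421 genes, and all 9 were found in it. Of these, 8 had enough reads for a test and *Otos* did not. RNA came from 6 cultures that the labels place in the stria vascularis, the vascularized epithelium of the cochlear lateral wall, of mice aged postnatal day 10 to 12, and each culture gave 1 library. In 3 cultures the mice were *Nhe6*-knockout, and in 3 they were wildtype. The knockout was a germline disruption, so every cell of the animal carried it, and no culture was treated. GEO's labels give C57BL/6N as the strain background of both groups, whereas the study's methods name C57bl6/j mice as wildtype and as the backcross strain. By the study's methods, the stria was removed together with the spiral ligament, cells that grew out were purified by fluorescence-activated sorting, and cells of several mice were pooled for a culture. The labels name an endothelial cell medium and do not say which mice gave which culture.

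Otic mesenchyme is the connective tissue that surrounds the otic vesicle in the embryo. It gives rise to the bony capsule and to the spiral ligament, whose fibrocytes sit just outside the stria vascularis, bind it to the capsule and recycle potassium towards it. The transcription factor genes among the 9 mark or specify this mesenchyme. *Pou3f4* encodes a POU-domain factor of otic mesenchyme whose loss causes deafness in mice and humans, and *Tbx18* encodes a T-box factor needed for otic fibrocytes to form. *Tbx15* is a close relative of *Tbx18*, *Foxc1* and *Foxc2* encode forkhead factors of mesoderm and neural crest, *Prrx1* encodes a homeodomain factor of limb and craniofacial mesenchyme, and *Twist1* encodes a basic helix-loop-helix factor of mesenchyme. *Coch* and *Otos* encode cochlin and otospiralin, secreted proteins that mature fibrocytes make in large amounts.

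The data were read with some facts of the libraries in view. The table held between 25587097 and 29126232 reads assigned to genes per library. On the first principal component, which held 50.2% of the variance, wildtype 2 stood at 106 and the other 5 libraries between -28.5 and -6.52. The results of the 9 genes are therefore given with and without wildtype 2, and those of other genes where that library moves them. Nhe6-knockout 1 and Nhe6-knockout 2 were closer to each other than any other pair of replicates, but differed by more than sampling noise (chi-square of 4.89 per degree of freedom, against 89.6 to 397 for the other pairs within a genotype), and they were kept as separate samples.

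The labels call the cells primary endothelial cells, and the marker genes were set beside that name. Of 15 endothelial markers, 7 had enough reads to be tested, *Cldn5*, *Sox17* and *Robo4* were at 0 in every library, and *Pecam1* never exceeded 8 reads. The summed level of the 15 ranged from 11461 to 20263 normalized counts in knockout and from 10252 to 19845 in wildtype, most of it from *Emcn* except in wildtype 2, where *Cdh5* and *Flt1* led. All 15 fibroblast markers were tested, and their sum, led by *Col1a2*, *Fn1* and *Col3a1*, ranged from 329767 to 362647 in knockout and from 291342 to 459169 in wildtype. The summed ranges overlapped, yet 5 of the 15 did not overlap between the genotypes and were higher in knockout (background 10.4%). At an unadjusted p under 0.05, 3 fibroblast markers were higher (background 6.14%) and 1 lower (5.71%), and DESeq2 called 3 higher (4.69%). The median log2 fold change of the 15 was 0.23, or 0.47 without wildtype 2. The markers called higher without wildtype 2 were 3, *Col5a1*, *Fap* and *Postn* (background 2.88%), named after their values were seen. The 1 lower marker, *Fn1*, had a log2 fold change of -0.94, or -0.70 without wildtype 2. *Col1a1*, also named afterwards, was at 27170 normalized counts in wildtype 2 and from 207 to 1228 elsewhere. Its log2 fold change turned from -3.35 to 2.10 without that library. The cells' sort and medium bear on which cells were present, and that was not tested. In such bulk samples, fewer cells of a type and less RNA per cell cannot be told apart.

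For 7 of the 9 genes a promoter window was found in RefSeq (GRCm38.p6), and *Tbx15* and *Foxc2* had no entry. The windows below are those of the gene with the largest drop in wildtype 2 (*Pou3f4*), of the gene with the largest difference between genotypes among the 8 tested (*Coch*) and of the gene with the smallest spread over all 6 libraries (*Twist1*), and each ends 1 base before the start of the gene in GENCODE M21. They lie at chrX:110814129-110814279 on the plus strand, chr12:51593091-51593340 on the plus strand and chr12:33957421-33957670 on the plus strand. Capitals mark a match to the TATA box.
Pou3f4: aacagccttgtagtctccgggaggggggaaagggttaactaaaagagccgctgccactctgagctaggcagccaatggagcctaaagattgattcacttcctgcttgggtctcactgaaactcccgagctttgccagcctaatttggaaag
Coch: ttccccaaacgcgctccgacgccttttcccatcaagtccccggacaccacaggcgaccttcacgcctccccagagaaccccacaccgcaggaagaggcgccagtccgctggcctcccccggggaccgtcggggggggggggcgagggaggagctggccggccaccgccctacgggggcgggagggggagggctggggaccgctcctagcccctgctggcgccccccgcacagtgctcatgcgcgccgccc
Twist1: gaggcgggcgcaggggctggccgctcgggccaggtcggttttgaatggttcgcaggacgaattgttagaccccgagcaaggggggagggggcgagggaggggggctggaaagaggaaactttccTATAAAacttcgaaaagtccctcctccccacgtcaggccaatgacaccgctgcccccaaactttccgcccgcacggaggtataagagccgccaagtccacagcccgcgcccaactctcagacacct

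The share of G and C was 51.7% in the 151 bases of *Pou3f4*, 74.8% in the 250 bases of *Coch* and 62.4% in the 250 bases of *Twist1*. Both strands of each window were searched for 6 motifs, some of which the factors described here are known to bind. TATAAA occurred once, in *Twist1*, and 12.4% of all 32851 RefSeq windows of 250 bases held it. The E-box CANNTG (66.2% of all windows of 250 bases and 49.5% of those of 151 bases), the forkhead motif TAAACA (12.0% and 8.18%), the octamer ATGCAAAT (1.60% and 0.950%), the T-box motif AGGTGTGA (1.12% and 0.706%) and the homeodomain motif TAATTA (4.84% and 3.25%) had no match in these 3 windows. A match, or the lack of one, describes these letters in this window and nothing more.

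The first comparison asked which of the genes differed between *Nhe6*-knockout and wildtype cultures. None of the 8 tested genes passed an adjusted p of 0.05 in edgeR's quasi-likelihood test, where the background was 0.0668% of 13479 tested genes. At an unadjusted p under 0.05, *Foxc2* and *Coch* passed, both lower in knockout, which is 2 of 8 against a background of 11.8% in either direction and 5.71% lower. DESeq2 called the same 2 genes (background 4.69%), with adjusted p of 0.0163 for *Coch* and 0.0340 for *Foxc2*. Of the 8 genes, 6 had a log2 fold change below 0 (background 51.9%) and 2 above it, with a median of -0.27 (all tested genes -0.02). In 4 of 8 the genotypes did not overlap (background 19.9%): *Foxc2*, *Twist1* and *Coch* were lower in each knockout library than in any wildtype library (background 9.54%), and *Pou3f4* was higher (background 10.4%). With 3 cultures against 3, an exact permutation test cannot give a two-sided p below 0.1. These 4 genes reached that value, as any gene without overlap does, so it adds nothing to the lack of overlap.

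**Figure D1:**
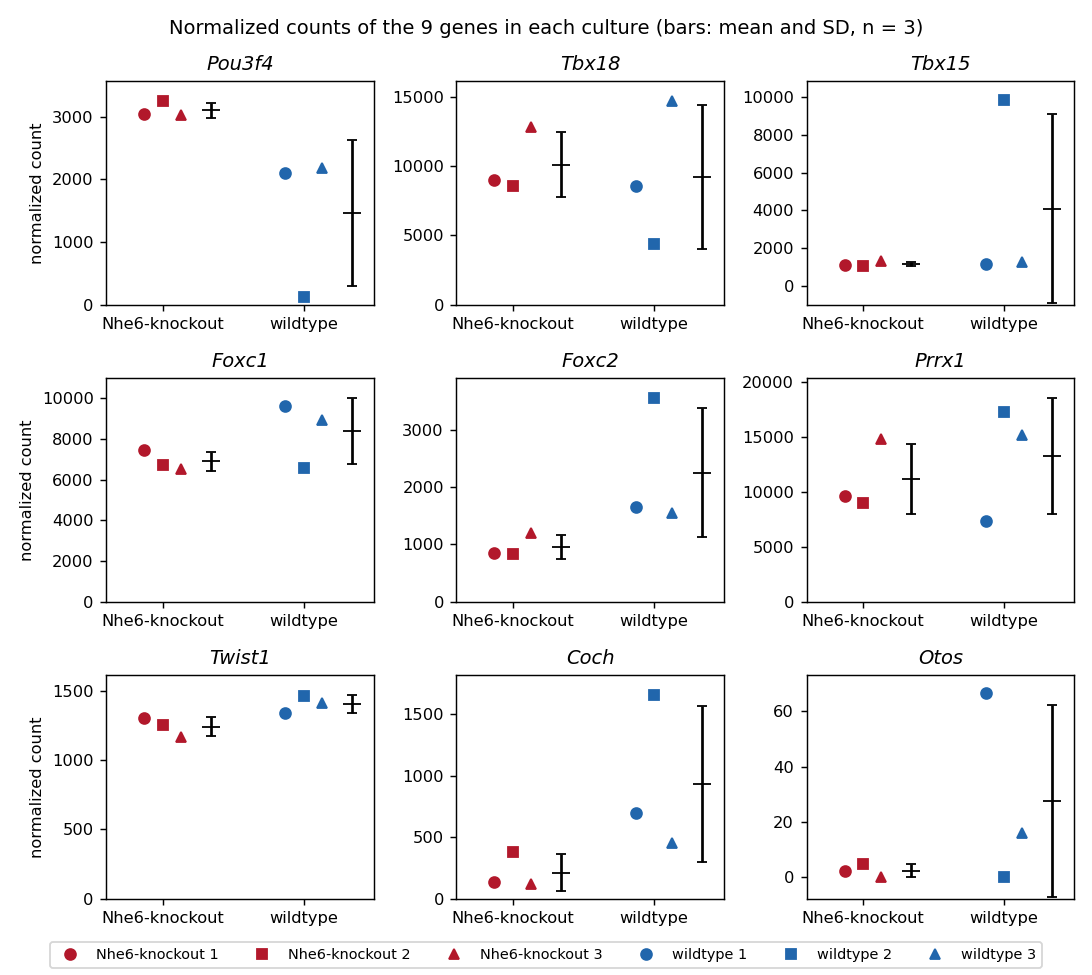
Normalized counts of each of the 9 genes in each culture, with knockout cultures in red and wildtype cultures in blue. Bars give the mean and SD of 3 cultures. Wildtype 2, the blue square, is the lowest point for *Pou3f4* (122) and the highest for *Tbx15* (9862), and the genotypes do not overlap for *Pou3f4*, *Foxc2*, *Twist1* and *Coch*.

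**Figure D2:**
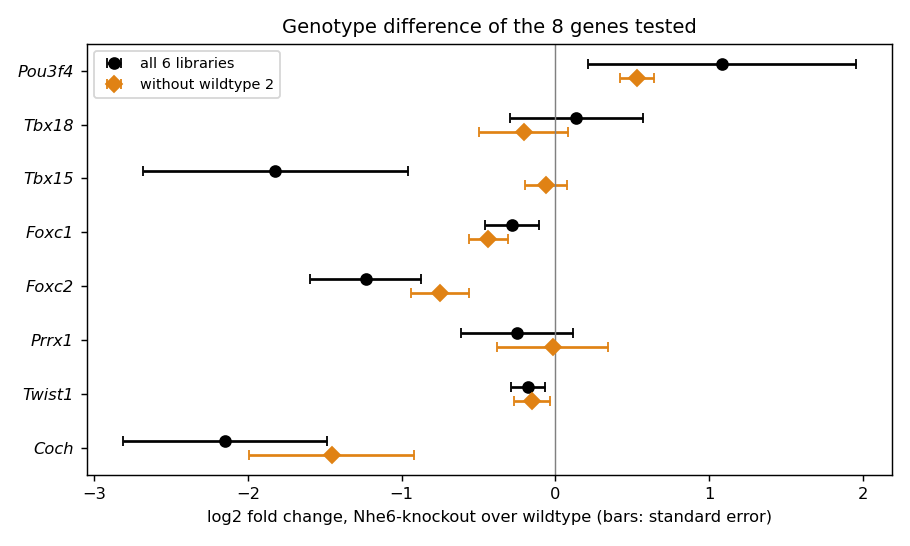
Log2 fold change, knockout over wildtype, of the 8 tested genes with all 6 libraries (black circles) and without wildtype 2 (orange diamonds), with bars of 1 standard error. *Tbx15* moves from -1.82 to -0.06 and *Tbx18* from 0.14 to -0.21 when wildtype 2 is left out, and *Coch* stays the lowest of the 8 after it (-1.45).

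*Pou3f4* (ENSMUSG00000056854.4, chrX:110814280-110817207, plus strand) is X-linked. Its normalized counts were 3037, 3243 and 3028 in knockout (mean 3103 ± 122, SD, n = 3) and 2092, 122 and 2183 in wildtype (1466 ± 1165). The 3 knockout values lay within a narrow band, above wildtype 1 and wildtype 3, while wildtype 2 lay 17.2-fold below the lowest of the other libraries. The log2 fold change was 1.08 (SE 0.87, adjusted p = 0.692). Without wildtype 2 the difference shrank and its error shrank more, to 0.53 (SE 0.11, adjusted p = 0.0643, edgeR). Neither adjusted p passed. A drop of at least 4-fold below every other library in wildtype 2 was seen for 3.36% of all tested genes.

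*Tbx18* (ENSMUSG00000032419.8, chr9:87702800-87731260, minus strand) had 8947, 8556 and 12779 normalized counts in knockout (10094 ± 2333, SD, n = 3) and 8548, 4339 and 14653 in wildtype (9180 ± 5186). The genotypes overlapped fully, and the highest and the lowest library were both wildtype. Its log2 fold change was 0.14 (SE 0.43, adjusted p = 0.937) and turned to -0.21 (SE 0.29, adjusted p = 0.748) without wildtype 2. *Tbx15* (ENSMUSG00000027868.11, chr3:99240381-99354259, plus strand), the related T-box gene, went the other way in that library. Its normalized counts were 1116, 1062 and 1298 in knockout (1159 ± 123) and 1158, 9862 and 1252 in wildtype (4091 ± 4998). Wildtype 2 held 7.60-fold more than the highest of the other 5 libraries, which lay close together, and 1.25% of tested genes stood at least 4-fold above all others there. The log2 fold change of *Tbx15*, -1.82 (SE 0.86, adjusted p = 0.472), came to -0.06 (SE 0.14, adjusted p = 0.851) without wildtype 2.

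*Foxc1* (ENSMUSG00000050295.4, chr13:31806633-31812476, plus strand) was among the steadier genes, with 7439, 6699 and 6524 normalized counts in knockout (6887 ± 486, SD, n = 3) and 9630, 6559 and 8936 in wildtype (8375 ± 1610). Wildtype 2 fell among the knockout values and the other 2 wildtype cultures lay above them. The log2 fold change was -0.28 (SE 0.18, adjusted p = 0.606), and -0.44 without wildtype 2 (SE 0.13, adjusted p = 0.137, edgeR). *Foxc2* (ENSMUSG00000046714.7, chr8:121116171-121118895, plus strand) had 844, 829 and 1194 normalized counts in knockout (956 ± 206) and 1651, 3543 and 1552 in wildtype (2248 ± 1122). Every wildtype value lay above every knockout value, and wildtype 2 was 2.15-fold above the next highest library. With all libraries the log2 fold change of *Foxc2* was -1.23 (SE 0.36, adjusted p = 0.260, edgeR), and without wildtype 2 it was -0.75 (SE 0.19, adjusted p = 0.104).

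*Prrx1* (ENSMUSG00000026586.16, chr1:163245119-163313710, minus strand) varied within both genotypes, with 9659, 9012 and 14810 normalized counts in knockout (11160 ± 3177, SD, n = 3) and 7334, 17287 and 15172 in wildtype (13264 ± 5244). Its log2 fold change was -0.25 (SE 0.36, adjusted p = 0.845), and -0.02 (SE 0.36, adjusted p = 0.984) without wildtype 2. *Twist1* (ENSMUSG00000035799.6, chr12:33957671-33959829, plus strand) varied little in either genotype, with a coefficient of variation of 5.35% in knockout and 4.45% in wildtype, although *Pou3f4* varied less in knockout (3.92%). The counts were 1301, 1255 and 1170 in knockout (1242 ± 66.4) and 1337, 1460 and 1416 in wildtype (1404 ± 62.4), so the genotypes did not overlap, although the highest knockout value lay close to the lowest wildtype value. The log2 fold change of *Twist1* was -0.18 (SE 0.11, adjusted p = 0.595), and -0.15 (SE 0.12, adjusted p = 0.526) without wildtype 2.

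*Coch* (ENSMUSG00000020953.17, chr12:51593341-51605771, plus strand), the cochlin gene, showed the largest difference between the genotypes among the 8 genes tested with all libraries. It had 134, 383 and 116 normalized counts in knockout (211 ± 149, SD, n = 3) and 695, 1654 and 457 in wildtype (936 ± 634). All wildtype cultures lay above all knockout cultures, and the wildtype mean was 4.43-fold the knockout mean. The spread within each genotype was wide, and the log2 fold change of -2.15 had an SE of 0.66 (adjusted p = 0.280, edgeR). Without wildtype 2, the highest culture, it was -1.45 (SE 0.54, adjusted p = 0.216, edgeR). Nhe6-knockout 1 and Nhe6-knockout 2, which were close for the other tested genes, differed for *Coch* (134 against 383).

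*Otos* (ENSMUSG00000044055.5, chr1:92644218-92648841, minus strand), the otospiralin gene, was close to absent. Its raw reads were 2, 5 and 0 in knockout (2.26 ± 2.33 normalized counts, SD, n = 3) and 68, 0 and 15 in wildtype (27.5 ± 34.7). Wildtype 1 and wildtype 3 were the only libraries with more than 5 reads. A count of 0 still leaves room for up to 3 reads, which is up to 2.84 normalized counts in Nhe6-knockout 3 and 3.09 in wildtype 2, from counting error alone. The filter on low counts removed *Otos* from the test with all libraries. Without wildtype 2 it passed the filter, through its wildtype reads alone, and had a log2 fold change of -4.12 (SE 1.01, adjusted p = 0.0941, edgeR). That fitted value rests on few reads. Without any filter, where 0.118% of all genes were called, the adjusted p was 0.539 (edgeR).

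Without wildtype 2, 0 of the then 9 tested genes passed the adjusted threshold (background 2.88%). An unadjusted p under 0.05 was found for 5 of 9, namely *Pou3f4*, *Foxc1*, *Foxc2*, *Coch* and *Otos* (background 19.5%). *Otos* entered this test only through its wildtype reads, so its lower level in knockout was fixed on entry and adds no support. The median log2 fold change of the 8 genes was then -0.18, and of the 9 with *Otos* -0.21, with 0.00 over all tested genes.

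Levels were next compared between the genes as RPKM (reads per kilobase of exon, scaled to the size of the library), which takes the length of each gene into account. *Tbx18* led with a mean level of 74.1 over the 6 libraries (33.3 to 113), which put it at the 96.2 percentile of all tested genes. *Foxc1* followed at 47.4 (40.5 to 59.8), then *Prrx1* at 40.0 (24.0 to 56.7), *Twist1* at 29.5 (26.1 to 32.5) and *Pou3f4* at 28.3 (1.51 to 40.2). The order closed with *Tbx15* at 25.4 (10.3 to 95.4), *Foxc2* at 21.3 (11.0 to 47.1), *Coch* at 6.93 (1.40 to 20.0) and *Otos* at 0.175 (0 to 0.783). Ranges of neighbours in this order overlapped, except those of *Coch* and *Otos*. All 7 transcription factor genes thus lay between the 82.8 and the 96.2 percentile, whereas *Coch* lay at the 55.1 percentile. The ranks were not the same in every library: *Tbx18* was first in 5 libraries and the fifth in wildtype 2, *Tbx15* was the seventh in 5 libraries and first in wildtype 2, and *Pou3f4* was between the third and the fifth in 5 libraries and the eighth in wildtype 2.

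**Figure D3:**
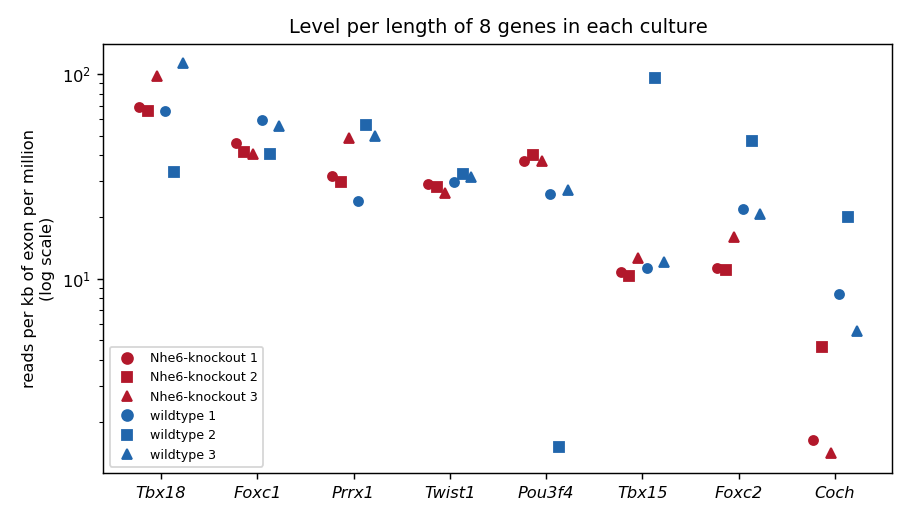
Level per length, in RPKM on a log scale, of 8 genes in each culture, ordered by the mean over 6 libraries, with knockout cultures in red and wildtype cultures in blue. *Otos* is left out because it was at 0 in 2 libraries. *Tbx18* leads in every library but wildtype 2, where *Tbx15* (95.4) lies above it (33.3).

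Related genes were set against each other within a library, which removes differences in depth. The level per length of *Tbx18* was 6.36, 6.40 and 7.82 times that of *Tbx15* in knockout and 5.86, 0.349 and 9.29 times in wildtype, so the pair was inverted in wildtype 2 and in no other library. *Foxc1* was 4.11, 3.77 and 2.55 times *Foxc2* in knockout and 2.72, 0.863 and 2.69 times in wildtype, again with the reverse order in wildtype 2. *Twist1* exceeded *Twist2* in every library, by 15.3 times in wildtype 2 and by 22.9 to 56.1 times in the others. The ratio of *Prrx1* to *Prrx2* ranged from 0.844 in wildtype 1 to 2.69 in wildtype 3. *Pou3f3* is the relative of *Pou3f4* with the most reads here, at 1586, 1721 and 1800 normalized counts in knockout and 2353, 200 and 2499 in wildtype. *Pou3f4* was 4.85, 4.77 and 4.26 times *Pou3f3* per length in knockout and 2.25, 1.54 and 2.21 times in wildtype. Both POU genes were lowest in wildtype 2, and the ratio separated the genotypes with that library included. The ratio was looked at after the values were seen and was given no test.

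How the genes varied together was described by Pearson's r of log2 normalized counts over the 6 libraries, which share their genotype and, for wildtype 2, a library that stands apart. *Pou3f4* and *Tbx15* had r = -0.99, which became -0.34 without wildtype 2. For *Pou3f4* and *Foxc2* r was -0.91 with all 6 libraries and -0.92 without wildtype 2. *Tbx18* and *Prrx1* had r = -0.05, which became 0.95 in the 5 libraries without wildtype 2, and *Tbx18* and *Tbx15* went from -0.80 to 0.87. For *Pou3f4* and *Foxc1*, r moved from 0.27 to -0.96. Relations that changed little without wildtype 2 were also found for *Pou3f4* and *Twist1* (-0.69 and -0.75), *Pou3f4* and *Coch* (-0.78 and -0.72) and *Twist1* and *Coch* (0.81 and 0.66). All the pairs were picked from the 28 after their values were seen.

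Among 11126 tested genes that averaged 100 normalized counts or more, those whose pattern over the 6 libraries was most like each gene were also named. *Emx2os* (r = 0.9996) and *Slc4a8* (0.9996) were closest to *Pou3f4*. *Emx2os*, an RNA transcribed beside the homeobox gene *Emx2*, had 257, 248 and 242 normalized counts in knockout and 156, 5.16 and 176 in wildtype. *Lhx6* (r = 0.999), a LIM homeobox gene, and *Parva* (0.997) were closest to *Tbx15*, and *Lhx6* had 234, 234 and 283 in knockout and 255, 1105 and 266 in wildtype. In both patterns wildtype 2 lay far from the other 5 libraries. Without it r was 0.98 for *Emx2os*, 0.99 for *Slc4a8*, 0.96 for *Lhx6* and 0.94 for *Parva*. The closest genes to *Tbx18* were *Dennd5b* (0.998) and *Kcnj3* (0.998), to *Foxc1* *Pdhb* (0.997) and *Lin7a* (0.991), to *Foxc2* *Vti1b* (0.995) and *Mrrf* (0.993), to *Prrx1* *Metap2* (0.9997) and *Maml2* (0.998), to *Twist1* *Col4a3bp* (0.995) and *Ubr2* (0.986), and to *Coch* *Klhl12* (0.994) and *Zkscan14* (0.986). With 6 libraries and this many candidates, high values of r are found for almost any pattern.

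Other genes of mesenchyme and of spiral ligament fibrocytes were then described from 4 lists that together held 62 genes, of which 52 were tested. None of the 52 passed the adjusted threshold (background 0.0668%). At an unadjusted p under 0.05, 8 were lower (background 5.71%) and 5 higher (background 6.14%), and DESeq2 called 2 lower and 2 higher (background 4.69%). The 2 higher calls, *Meox2* and *Tbx20*, passed the filter only through knockout, so their direction was fixed on entry. The same holds for *Meox1* among the 5 higher genes. The median log2 fold change of the 52 was -0.02, as over all tested genes, and 0.04 without wildtype 2.

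Among 24 further mesenchyme transcription factor genes, 21 were tested, with 3 lower (background 5.71%) and 3 higher (background 6.14%) at an unadjusted p under 0.05. Their median log2 fold change was 0.06, and 0.42 without wildtype 2. *Osr1* and *Snai2* were among the most abundant per length. *Osr1*, a zinc finger factor of early mesoderm, had 3978, 4246 and 2683 normalized counts in knockout and 6646, 2076 and 3246 in wildtype, and the genotypes overlapped. The genes in the rest of this paragraph were chosen after their values were seen. Of the 3 higher genes, *Meox1* and *Meox2* had 11 to 35 reads in knockout and 0 to 4 in wildtype. Those 2 passed the filter only through knockout, so their direction was fixed on entry. Of the 3 lower genes, *Alx4* had a log2 fold change of -4.64 that turned to 0.42 without wildtype 2. *Foxd1* was at 56.3, 77.1 and 72.9 in knockout and at 195, 2381 and 153 in wildtype. Its log2 fold change was -3.72 (SE 1.15, adjusted p = 0.281, edgeR), and -1.34 without wildtype 2 (adjusted p = 0.0577, edgeR). *Six2*, a homeobox gene, was at 483, 492 and 489 in knockout and at 1014, 1435 and 979 in wildtype, and had a log2 fold change of -1.23 (SE 0.18, adjusted p = 0.0869), which passed without wildtype 2 (adjusted p = 0.0229, edgeR). In wildtype 2, 4 of the 21 stood at least 4-fold above every other library (background 1.25%). These were *Alx4* at 5590 (highest other 96.6), *Zic1* at 4357 (117), *Msx1* at 2597 (173) and *Foxd1* at 2381 (195), each known from craniofacial, limb or body wall mesenchyme. *Alx1*, which did not pass the filter for the test, was at 1442 in wildtype 2 and at most 0.947 elsewhere. *Tbx2*, a T-box gene of the otic region, was at 10.3 in wildtype 2 and from 75.3 to 172 elsewhere. *Eya1*, a transcriptional cofactor gene of the ear, was at 470 in wildtype 2 and from 1755 to 2400 elsewhere, and *Foxf2* was at 259 against 909 to 1486. In wildtype 2 *Tbx15* was thus high beside *Alx1*, *Alx4*, *Zic1*, *Msx1* and *Foxd1*, and *Pou3f4* low beside *Tbx2*, *Eya1* and *Foxf2*. Other genes of the list did not stand apart there. *Msx2* was at 237 in wildtype 2 and at most 161 elsewhere, and *Snai1*, *Snai2* and *Sox9* lay within the range of the other libraries. The origin of that difference was not tested.

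**Figure D4:**
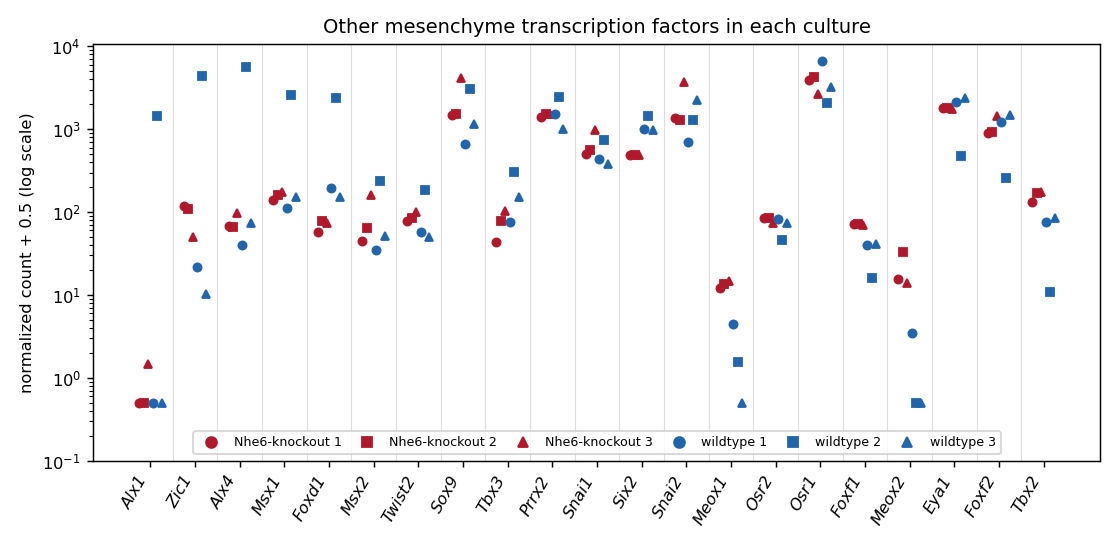
Normalized counts plus 0.5, on a log scale, of other mesenchyme transcription factor genes in each culture, ordered from the highest to the lowest ratio of wildtype 2 to the other wildtype cultures. Wildtype 2, the blue squares, stands far above the rest at the left (*Alx1* at 1442, *Alx4* at 5590) and below at the right (*Tbx2* at 10.3).

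Of 11 relatives of the 9 genes, 6 were tested, and *Tbx22* and *Tbx5* were at 0 throughout. *Prrx2*, *Pou3f3* and *Tbx1* were the most abundant per length. *Tbx1*, a T-box gene of otic epithelium and mesenchyme, had 394, 380 and 476 normalized counts in knockout and 898, 132 and 619 in wildtype, with the lowest value in wildtype 2. *Tbx20*, named after its values were seen, was the only relative with an unadjusted p under 0.05. It was at 124, 95.7 and 250 in knockout and at 7.82, 3.09 and 20.3 in wildtype. Its log2 fold change was 3.90 (SE 0.75, adjusted p = 0.114, edgeR), and 3.47 (adjusted p = 0.0528, edgeR) without wildtype 2. It passed the filter only through knockout, so its direction was fixed on entry and adds no support. Of 13 genes whose products act with those of the 9, such as the E proteins that pair with TWIST1 and the ID proteins that compete for them, 11 were tested, none was lower and 1, *Tcf3*, higher at an unadjusted p under 0.05 (log2 fold change 0.54, SE 0.21, adjusted p = 0.388, and 0.64 and 0.186 without wildtype 2). *Id3*, *Id2* and *Id1* were the most abundant of these per length, with adjusted p from 0.719 to 0.939, and *Epha4*, a target of POU3F4 in otic mesenchyme, and its ligand gene *Efnb2* had log2 fold changes of 0.20 and 0.02 (0.17 and -0.06 without wildtype 2).

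Other genes of spiral ligament fibrocytes were described next. With all libraries, *Coch* did not pass the adjusted threshold in edgeR, and *Otos* was not tested. All 16 genes of the fibrocyte list were tested, none passed the adjusted threshold, and 5 were lower (background 5.71%) and 0 higher (6.14%) at an unadjusted p under 0.05, namely *Aqp1*, *Slc12a2*, *Emilin2*, *Cav1* and *S100a1*. The median log2 fold change was -0.60 (all tested genes -0.02), and -0.44 without wildtype 2 (0.00). The 16 genes summed to 107084 to 109306 normalized counts in the knockout libraries and 133759 to 145152 in the wildtype libraries, while more of the fibroblast markers above were higher in knockout than lower. The list is not specific to fibrocytes, since fibroblasts and other cells also express several of these genes. A sum is weighted by abundant genes. Picked after their values were seen, *Gjb2* averaged 1343 in knockout and 12158 in wildtype, *Cav1* 4386 and 14785, and *Aqp1* 2351 and 8149. Of the 16, 11 had a log2 fold change below 0 and 5 above it. *Vim*, *Atp1b1* and *Car3* were the most abundant per length. *Vim*, the intermediate filament gene of mesenchyme, and *Atp1b1*, a sodium pump subunit, had log2 fold changes of 0.05 and 0.01. *Car3*, a carbonic anhydrase gene, was at 7702, 7632 and 10794 in knockout and at 4021, 367 and 17997 in wildtype, with a log2 fold change of 0.22 that turned to -0.35 without wildtype 2.

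The fibrocyte genes also split in wildtype 2, and those named next were chosen after their values were seen. *Gjb2*, the connexin 26 gene of the fibrocyte gap junction network, had 1757, 1877 and 397 normalized counts in knockout and 21689, 28.9 and 14757 in wildtype. Its log2 fold change was -3.18 (SE 1.71, adjusted p = 0.533), and without wildtype 2 it was -3.77 and passed (adjusted p = 0.0428, edgeR). *Gjb6*, the connexin 30 gene, had 755, 734 and 164 against 3208, 20.6 and 1464, with a log2 fold change of -1.51, or -2.09 without wildtype 2 (adjusted p = 0.157, edgeR). *Otor*, which encodes the secreted protein otoraplin, had 117, 138 and 359 against 134, 11.3 and 701, with a log2 fold change of -0.46, or -1.03 without wildtype 2. *Gjb2*, *Gjb6*, *Otor* and *Car3* were all at least 4-fold lower in wildtype 2 than in any other library, 4 of 16 against a background of 3.36%. *Coch* was not among them, since wildtype 2 held its highest value. *Cav1*, the caveolin gene, was at 4389, 4302 and 4468 in knockout and at 15290, 6816 and 22249 in wildtype, with a log2 fold change of -1.75 (SE 0.41, adjusted p = 0.162) that passed without wildtype 2 (-2.10, adjusted p = 0.0140, edgeR). *Aqp1*, a water channel gene of type III fibrocytes and of other cells, was at 2944, 2996 and 1113 against 5969, 15206 and 3272 (log2 fold change -1.79, SE 0.65, adjusted p = 0.357, and -0.98 without wildtype 2, adjusted p = 0.316).

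**Figure D5:**
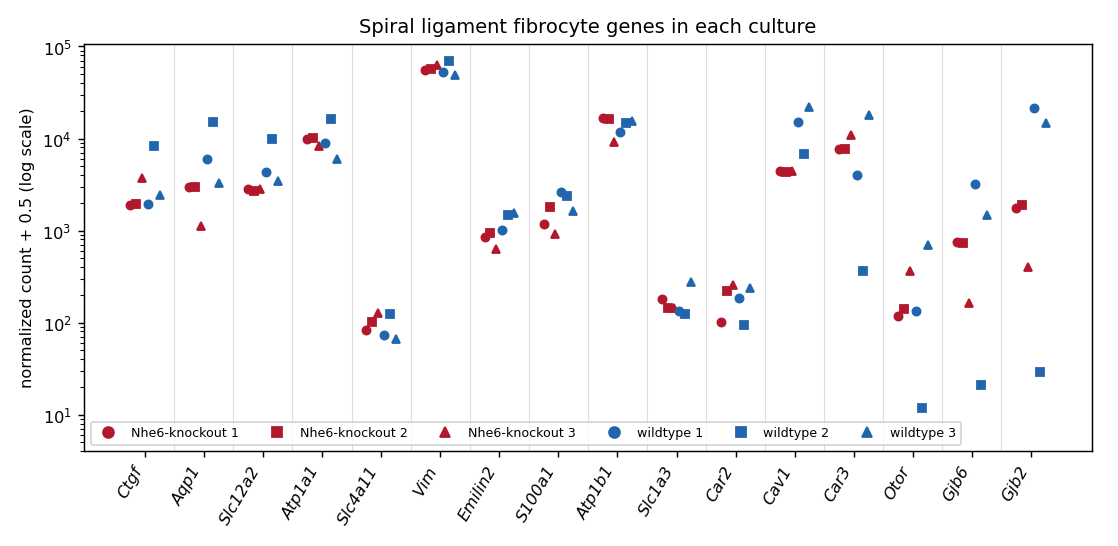
Normalized counts plus 0.5, on a log scale, of 16 genes of spiral ligament fibrocytes in each culture, in the same order of the wildtype 2 ratio. *Gjb2*, *Gjb6*, *Otor* and *Car3* at the right are lowest in wildtype 2 (28.9 for *Gjb2*), and *Aqp1* at the left is highest there (15206).

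Markers of other cells of the lateral wall were set beside these values, and their part in the results was not tested. The 12 pericyte and mural markers, led by *Pdgfrb*, *Acta2* and *Notch3*, summed to 22095 to 24375 normalized counts in knockout and 16270 to 35259 in wildtype, with 10 of 12 tested and *Higd1b* at 0. Of the 10, 5 did not overlap between the genotypes and were higher in knockout (background 10.4%), and 0 were lower (9.54%). At an unadjusted p under 0.05, 2 were higher (6.14%) and 0 lower (5.71%). DESeq2 called 1 higher, *Notch3* (4.69%), as did edgeR without wildtype 2 (2.88%). The median log2 fold change was 0.78, and 1.12 without wildtype 2. Within this list *Acta2* was at 16265 in wildtype 2 and from 29.3 to 1204 elsewhere. The 10 macrophage markers, led by *Lyz2*, *Cd68* and *Mrc1*, summed to 1425 to 3495 in knockout and to 144 in wildtype 2 against 1835 and 3443 in the other wildtype cultures. *Emcn*, the most abundant endothelial marker, was at 409 in wildtype 2 and from 9902 to 18396 elsewhere. *Cdh5*, the next, was lower in knockout (log2 fold change -4.15, SE 0.31, adjusted p = 0.0133, edgeR, and -3.83 without wildtype 2). Of the 7 endothelial markers tested, 4 had a log2 fold change below 0 and 3 above it (median -0.42, or -0.12 without wildtype 2). At an unadjusted p under 0.05, 3 were lower (5.71%) and 0 higher (6.14%). The genotypes did not overlap for 2, both lower (9.54%). DESeq2 called 2 lower and 0 higher (4.69%). Without wildtype 2, edgeR called 1 lower and 1 higher (2.88%). The 9 markers of marginal and basal cells, led by *Cldn11*, *Epcam* and *Lmx1a*, summed to 27.5 to 596 in knockout and 378 to 1014 in wildtype, with *Kcne1* and *Bsnd* at 0. This sum was lowest in Nhe6-knockout 3, which also held the lowest count of *Coch* and, with wildtype 2, of *Otos*. Melanocyte markers (409 to 686 in knockout and 288 to 1153 in wildtype, led by *Mitf*, *Pmel* and *Tyrp1*), Schwann cell markers (415 to 813 and 568 to 803, led by *S100b*, with *Foxd3* at 0) and markers of the sensory epithelium (406 to 523 and 291 to 556, led by *Myo7a*, *Sox2* and *Otoa*, with *Pou4f3*, *Atoh1* and *Otof* at 0) were low in both genotypes.

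The genes that flank the 9 on the chromosome, 2 on each side, were looked at last. Of these 36 genes, 35 were in the table and 24 were tested, 0 passed the adjusted threshold (background 0.0668%), and 3 had an unadjusted p under 0.05 (background 11.8%, *Snx14*, *Foxf1* and *G2e3*). *Foxc1* and *Foxc2* each lie in a cluster of forkhead genes. *Foxf1*, 28026 bases before *Foxc2*, had a log2 fold change of 1.14 (0.80 without wildtype 2) where that of *Foxc2* was -1.23, and *Foxl1*, 9044 bases after it, had one of -1.08 (-0.49 without wildtype 2). *Foxl1* was at 28.7, 32.5 and 23.7 normalized counts in knockout and at 47.9, 101 and 31.0 in wildtype, highest like *Foxc2* in wildtype 2. *Wars2*, which ends 1194 bases before *Tbx15*, had 409 in wildtype 2 and from 255 to 381 elsewhere, so it exceeded the other libraries there by far less than *Tbx15*. *Strn3*, 3860 bases after *Coch*, had a log2 fold change of -0.13. GENCODE M21 places RNAs without an entry in the table over *Tbx18*, *Tbx15*, *Foxc2* and *Prrx1*, and whether the counting used strand is not given in the sources used here, so reads from such RNAs on either strand may be among the counts of these 4 genes.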

How the data were processed

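RNA-seq was done on 6 cultures, 1 library each, 3 *Nhe6*-knockout and 3 wildtype, with poly(A)-enriched stranded libraries and 75 sequencing cycles on mm10. The authors deposited raw read counts per gene symbol, neither normalized nor filtered. The submitters' processing notes name bcl2fastq 2.20.0.422, STAR 2.7.7a, HTSeq 0.13.5 and DESeq2 1.26.0. The 5 lines for reads outside genes held 22.2% of all reads and were left out.

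Genes were filtered with filterByExpr (minimum count 10), which left 13479 of 17769 genes with any count, and normalized by TMM (factors 0.976 to 1.03). Genotypes were compared with edgeR 4.0.16 (quasi-likelihood test, Benjamini-Hochberg, threshold 0.05) in R 4.3.3. DESeq2 1.42.0, limma-voom 3.58.1, other filters and size factors, a replicate block and leaving out each library were alternatives. A normalized count is the count divided by the library's effective size, scaled to the mean size. Positions and lengths came from GENCODE M21 (24010 of 24421 genes matched by symbol). The fits were tested on simulated data.

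The 9 genes and all lists were chosen with earlier results of these data known. Named were the 9 genes, genes of each list past the threshold or among the 3 most abundant, markers at 0 and the 2 genes of most similar pattern (log2 of normalized count plus 0.5). Same-numbered cultures of the 2 genotypes did not deviate together (r of 0.207, -0.189 and 0.111). p-values measure the spread between these cultures, whose animals the labels do not name. Some listed genes, the targeted gene among them, are not reported here.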

Additional observations from a re-analysis of the deposited data

How the results depend on the processing

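With all 6 libraries, 9 of 13479 genes were called. The count was 9 with DESeq2 size factors, 10 with limma-voom, 21 without a filter beyond 1 count, 21 with at least 10 counts in every library, 627 with the Wald test of DESeq2, 2 with the replicate block, and 0 to 395 when 1 library was left out, with 395 without wildtype 2. Of the 9 genes described, 0 were called by edgeR under any of these settings, 0 by limma-voom and 2 by DESeq2. At an unadjusted p under 0.05 it was 1 to 5, with 5, *Otos* among them, without wildtype 2. Of the 62 genes in the 4 lists, 0 were called except for 4 with DESeq2 and 3 without wildtype 2 (0 to 3 over the libraries left out). The log2 fold change of *Tbx18* changed sign without Nhe6-knockout 3 (-0.08) and without wildtype 2 (-0.21), with 0.64 as its highest value without 1 library (wildtype 3), and the cause was not tested. DESeq2 gave no p for *Tbx15*. With the replicate block, as without it, 0 of the 9 genes were called. With 3 cultures a group and 1 that stands apart, a p above the threshold does not show that a gene did not differ.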

Other observations

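Genes of bone and cartilage, tissues that otic mesenchyme also forms, were described from a further list, and none passed the adjusted threshold. Of 11 listed genes 7 were tested, with 3 higher and 1 lower in knockout at an unadjusted p under 0.05 (background 11.8%) and a median log2 fold change of 1.91 (all tested genes -0.02). *Dmp1*, *Runx2* and *Col2a1* had the most reads, and *Runx2* had a log2 fold change of -0.06. *Col2a1*, the cartilage collagen gene, was at 813, 910 and 1757 normalized counts in knockout and at 240, 58.8 and 430 in wildtype (log2 fold change 2.26, SE 0.70, adjusted p = 0.282, edgeR). *Sp7*, an osteoblast transcription factor gene, was at 53.1, 62.3 and 80.5 against 8.80, 9.28 and 17.1 (2.47, SE 0.42, adjusted p = 0.0985), and *Alpl*, the bone alkaline phosphatase gene, at 108, 155 and 48.3 against 4.89, 7.22 and 21.4 (3.21, SE 0.72, adjusted p = 0.152). In these 3 genes, 2 of which were chosen after their values were seen, no knockout culture overlapped a wildtype culture (background 10.4% for higher). *Sp7* and *Alpl* passed the filter only through their knockout reads, so their direction was fixed on entry. *Comp*, the 1 lower gene, also chosen afterwards, was at 19.1, 14.9 and 21.8 in knockout and at 62.6, 298 and 19.3 in wildtype. Its log2 fold change was -2.76 (SE 0.98, adjusted p = 0.351, edgeR), and -1.14 without wildtype 2. Without wildtype 2 the median of the 7 was 1.40, or 1.59 with *Ibsp*. That gene passed the filter there only through Nhe6-knockout 1 and Nhe6-knockout 2. The adjusted p without wildtype 2 (edgeR) was 0.0943 for *Col2a1*, 0.0582 for *Sp7* and 0.110 for *Alpl*. DESeq2 called 3 of the 7, all higher (background 4.69%), and 2 of these were *Sp7* and *Alpl*, whose direction was fixed. The knockout sums of the 11 genes ranged from 4800 to 7344 and the wildtype sums from 2261 to 5401, and they overlapped because *Dmp1*, an osteocyte gene, was at 4041, 4116 and 1205 in knockout and at 4086, 587 and 3887 in wildtype.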
